A study of Mus musculus with 10 samples.

Results

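The genes described here are 100 protein-coding genes of mouse NIH3T3 fibroblasts whose exon reads stood highest relative to their intron reads in cells kept at 33 °C rather than 38 °C. They were chosen from the 0 h samples alone, among 8328 genes with at least 100 exon reads and 100 intron reads in each of the 4 columns of values at 0 h, out of 38087 genes in all. For each gene the log2 of exon reads plus 1 over intron reads plus 1 was taken in each column, the 38 °C value was subtracted from the 33 °C value within both pairs of columns, and the genes were ranked by the smaller of the 2 differences. Cirbp and Rbm3, cold-inducible RNA-binding proteins, and Cela1 were left out by the rule. Because the 0 h values chose the genes, they are given as a description, and the tests use the 1 to 9 h samples.

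The study followed wild-type NIH3T3 cells, an established mouse embryonic fibroblast line, in 2 temperature courses with 5 times each and 1 sample per time. In both courses the cells were seeded for 4 h at 37 °C and then held for 16 h at the first temperature. In the downshift course that temperature was 38 °C and the cells were moved to 33 °C. In the upshift course it was 33 °C and the cells were moved to 38 °C, and the times after the move are 0, 1, 3, 6 and 9 h. The 0 h sample of the upshift course is therefore the 33 °C sample that chose the genes, and the 0 h sample of the downshift course is the 38 °C one. Total RNA depleted of ribosomal RNA was sequenced, so that unspliced and spliced transcripts were both read. All samples come from 1 cell line, and nothing in the labels says that they are separate cultures, so p-values measure the scatter of these samples, which may be technical. For changes over time, that scatter also includes any departure from a straight line on log2(hours + 1), as each time has 1 sample. In bulk RNA, fewer cells with a transcript and less of it per cell cannot be told apart.

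In a mammalian cell the introns of a transcript are removed by the spliceosome, mostly while the RNA is still being made, and the excised introns are quickly degraded. Exon reads therefore come mostly from mature messenger RNA, and intron reads from precursors and from transcripts that keep an intron. The exon-to-intron ratio depends on splicing, on the rate of transcription and on the stability of the mature RNA together, and it does not separate them. In the gene for CIRBP the efficiency of splicing is known to be higher in the cold.

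Each sample has values in 2 numbered column series, 5 and 11 in the downshift course and 2 and 13 in the upshift course, which were summed for the tests. The downshift samples at 1 and 3 h also have values in a further series, 10, which the main tests left out. The exon columns held between 22403625 and 48004854 reads and the intron columns between 15313374 and 25233404 reads. The 7 fibroblast markers summed to 17447 to 18257 CPM, which are reads scaled to the exon total of the sample, in the downshift samples and 22404 to 27014 in the upshift samples. The 3 muscle markers reached at most 0.028 with Myod1 at 0 in every sample, the 3 adipocyte markers 0.145, the 4 epithelial markers 2.64, the 3 endothelial markers 4.91 and the 3 leukocyte markers 16.8.

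Exon-exon junctions of 5 of the genes, read from the GENCODE M21 transcripts on GRCm38 5′ to 3′, show what a spliced read across the longest intron of each looks like. They were chosen because they mark the ends of the pattern described below, 3 genes whose ratio followed the temperature after the move and 2 whose ratio was still lower at 33 °C than at 38 °C. Each line holds 15 bases on either side of the junction, and the capitals mark the last 3 bases of the upstream exon, which face the U1 small nuclear RNA, and the first base of the downstream exon.
2010012O05Rik: tcgcggagctccGAGCtgctggggcaggca
Prr14: atgactacaaacAGGGtccccctgacacac
Rpl11: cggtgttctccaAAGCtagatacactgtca
Loxl1: accagaatggtcGCGGcctccctgacttag
Nqo1: ctggagccatggCGGCgagaagagccctga
The intron removed at the first line is intron 1 of 4 of 2010012O05Rik, at chr19:46690086-46699555 on the plus strand, 9470 bases long. In Prr14 it is intron 2 of 10, chr7:127472267-127473594 on the plus strand. In Rpl11 it is intron 2 of 5, chr4:136051721-136052566 on the minus strand, 846 bases long. The others are intron 1 of 6 of Loxl1 at chr9:58297730-58311685 and intron 1 of 5 of Nqo1 at chr8:107393013-107403065, both on the minus strand. Across all junctions of the longest transcripts, the upstream exon ended in AG at 508 of 981 junctions of the 100 genes (51.8%), and at 55398 of 97314 junctions of the other genes past the count floor (56.9%).

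At 0 h the smaller difference between 33 and 38 °C ranged from 1.02 to 2.08 on the log2 scale over the 100 genes, with a median of 1.15, against a median of 0.19 over the 8328 genes. The values just inside the cutoff were 1.0211 for Nqo1, 1.02 for Zdhhc3 and 1.0192 for Slc41a2, and those just outside were 1.0192 for R3hdm4, 1.0181 for Pmepa1 and 1.018 for Xylt2. Both kinds of read made up the difference. Exon reads were higher at 33 °C by a median of 0.68 in series 2 against 5 and 0.85 in series 13 against 11, while intron reads were lower, with medians of -0.63 and -0.39. Over all 8328 genes the exon medians were -0.06 and -0.10 and the intron medians -0.39 and -0.34. In these values the exon medians of the chosen genes lay further from those of all genes than the intron medians did. As the same values chose the genes, this describes the choice only.

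The authors' intron and exon counts were divided by GENCODE M21 intron and exon bases, and intron reads per kilobase taken as a percent of exon reads per kilobase. The annotation behind the counts is not given, so the percent of a gene depends on how well these lengths match it. The median gene stood at 10.8% in the 33 °C sample and 27.8% in the 38 °C sample at 0 h, the values that chose the genes. The other genes with both lengths known (8187) had medians of 13.7% at 33 °C and 16.5% at 38 °C. In the downshift course the median of the 100 genes was 27.8%, 21.4%, 19.4%, 16.9% and 17.003% at 0, 1, 3, 6 and 9 h. In the upshift course it was 10.8%, 12.7%, 15.6%, 20.1% and 20.2% at the same times. At 1, 3, 6 and 9 h the median of the other genes was 16.4%, 15.999%, 15.01% and 15.95% in the downshift course and 14.2%, 14.7%, 14.8% and 15.2% in the upshift course. By these lengths Prr14, which tethers heterochromatin to the nuclear lamina, had an intron density above its exon density in every sample. It stood at 437%, 267%, 209%, 149% and 127% over the downshift course and 116%, 195%, 214%, 244% and 289% over the upshift course. Fibp, with 304 intron bases outside all of its annotated exons, was higher than Prr14 in every sample. It stood at 767% at 0 h of the downshift course and 365% at 0 h of the upshift course. The longest transcript of Fibp has 9 introns, the longest of 1015 bases, so 304 bases may be too few for the introns counted. Whether the lengths match the counts was not tested. An RNA gene on the same strand, B130055M24Rik, overlaps Prr14, and the part of its reads in the Prr14 intron values was not tested.

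By 9 h the median ratio of these genes was higher than at 1 h in the downshift course and lower than at 1 h in the upshift course, in both summed series of each. The median log2 ratio of the 100 genes in the downshift course was -0.67, -0.27, -0.04, -0.05 and 0.03 at 0, 1, 3, 6 and 9 h in series 5 and -0.76, -0.12, -0.14, 0.07 and -0.00 in series 11. In the upshift course it was 0.70, 0.42, 0.29, -0.05 and -0.23 in series 2 and 0.65, 0.22, -0.02, -0.24 and -0.31 in series 13. The further series 10, which covers 1 and 3 h of the downshift course, gave -0.21 and -0.33, a fall. Over the 8328 genes the medians lay between 0.16 and 0.75 in all columns. The step between 0 and 1 h includes the values that chose the genes, and only the later steps are free of that choice.

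**Figure D1:**
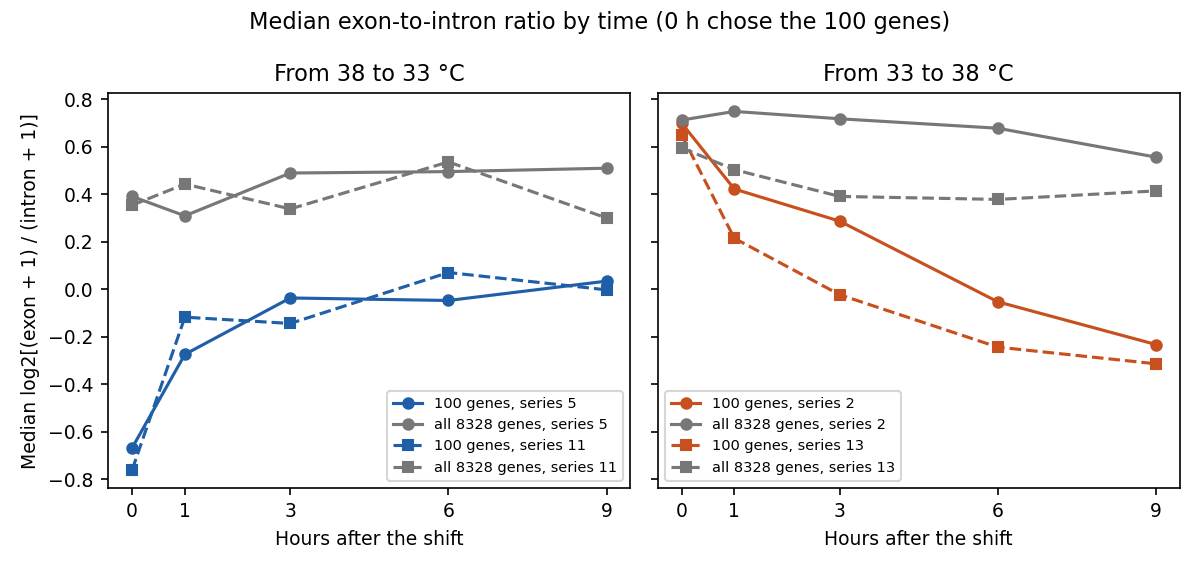
Median log2 ratio of exon to intron reads (vertical axis) against hours after the shift for the downshift course (left) and the upshift course (right), with 1 line per column series for the 100 genes (coloured) and for all 8328 genes past the count floor (grey). The downshift lines of series 5 and 11 are higher and the upshift lines lower at 9 h than at 1 h, with small falls between times in the downshift course, and at 9 h the 100 genes stand at 0.03 and -0.00 in the downshift course and at -0.23 and -0.31 in the upshift course.

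The courses crossed within the 9 h. The difference in log2 ratio, downshift minus upshift at the same time, had a median of -0.71 in series 5 minus 2 and -0.31 in series 11 minus 13 at 1 h. It was -0.23 and -0.05 at 3 h, 0.09 and 0.30 at 6 h, and 0.34 and 0.18 at 9 h. All 100 genes were lower in the downshift course at 0 h by the rule. The downshift value was above the upshift value in both series pairs for 13, 27, 57 and 65 of the genes at 1, 3, 6 and 9 h, beside 17.7%, 20.0%, 24.96% and 28.9% of the 8328 genes. It was below in both pairs for 72, 56, 25 and 17 genes at those times, beside 53.6%, 54.9%, 29.5% and 48.2% of the 8328. The first time at which the downshift value was above in both pairs was 1 h for 13 genes, 3 h for 16, 6 h for 30 and 9 h for 12. In 29 genes no time showed it.

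**Figure D2:**
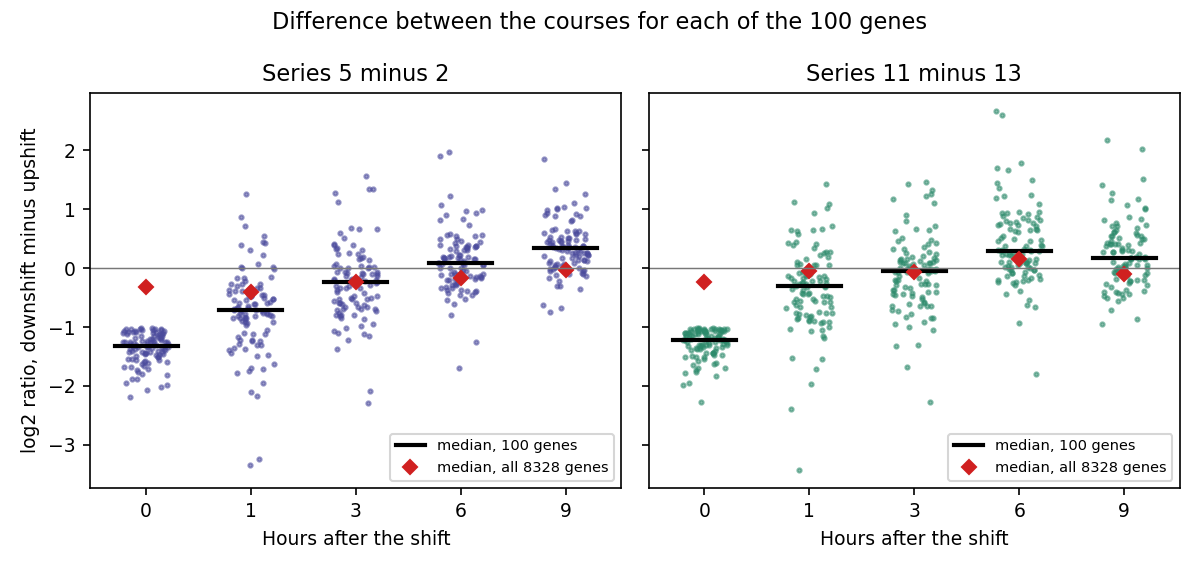
Difference in log2 exon-to-intron ratio, downshift minus upshift (vertical axis), at each time after the shift, with 1 point per gene, a bar at the median of the 100 genes and a diamond at the median of all 8328 genes; left series 5 minus 2, right series 11 minus 13. The medians of the 100 genes pass from -0.71 and -0.31 at 1 h to 0.34 and 0.18 at 9 h, while the 0 h points lie below -1 by the rule.

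At the median the crossing did not bring the genes back to the levels of long-held cells. Cells 9 h after the move to 33 °C had a ratio below that of cells held at 33 °C for 16 h, with a median difference of -0.52 in series 5 against 2 and -0.64 in series 11 against 13, against -0.18 and -0.27 over the 8328 genes. Cells 9 h after the move to 38 °C were above cells held there, by medians of 0.47 and 0.41, against 0.17 and 0.07. The 16 h values are those that chose the genes, so these differences are a description.

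Of the 100 genes, 60 changed their ratio differently in the courses between 1 and 9 h, all toward a higher ratio at 33 °C, and 0 went the other way (edgeR's quasi-likelihood test, Benjamini-Hochberg adjusted p below 0.05 over 9742 genes). The background was 20.9% of the 9742 genes called higher, and 595 of the 9742 were called lower. The median of the difference in change, downshift minus upshift, was 0.83 on the log2 scale for the 100 genes and 0.21 for all genes tested, and 88 of the 100 lay above 0. No gene was lower even at an unadjusted p below 0.05, nor in DESeq2 or limma. After the move to 33 °C alone, 25 of the genes rose (background 7.58%) and 0 fell (background 2.97%), with a median change of 0.31 against 0.09. After the move to 38 °C alone, 45 fell (background 8.7%) and 0 rose (background 1.8%), with a median of -0.48 against -0.12. At an unadjusted p below 0.05, 2 genes moved the other way in each course, and DESeq2 and limma called 0. The 15 genes called in both courses were Prr14, Slc1a5, Rp9, Slc6a6, Dnase2a, Fstl1, Nlgn2, Tpcn2, Slco2a1, Pcdh7, Ptgis, Adc, Klhdc10, Nqo1 and Zdhhc3. Joint calls, here and below, were counted in the 100 genes only, so no share over all genes stands beside them. The 1 h samples carried much of these counts, for the 100 genes and for all genes tested. Without the upshift sample at 1 h the 60 became 24 and the 45 became 3, without the downshift sample at 1 h the 60 became 34 and the 25 became 5, and the 25 also became 7 without the downshift sample at 6 h and 5 without that at 9 h. The 45 became 20 without the upshift sample at 6 h. Over all genes tested, the 2039 called higher between the courses became 452 without the upshift sample at 1 h and 615 without the downshift one. The median of the 100 genes was 0.80 and 0.89 in these fits. The 848 called lower after the upshift became 43 without its 1 h sample, with a median of the 100 genes of -0.40. The 738 called higher after the downshift became 25 without its 1 h sample, with a median of 0.43. They became 63 without the downshift sample at 6 h and 114 without that at 9 h. The 848 became 271 without the upshift sample at 6 h. Within series 2 and 5 alone the 60, 25 and 45 were 71, 38 and 42. Within series 11 and 13 alone they were 37, 7 and 19. For the difference between the courses, 2656 of 8882 genes and 549 of 9032 genes were called higher in these 2 fits. The medians of the 100 genes for that difference were 1.02 and 0.66. After the downshift 1792 of the 8882 and 78 of the 9032 genes were called higher. After the upshift 851 and 269 were called lower. With exon and intron reads scaled separately, which shifts the median of all genes to -0.08, the 60 became 43 and the 45 became 24, with 951 genes higher and 1334 lower of the 9742. With time in hours the 25 became 14 and the 45 became 11, while the 738 and 848 over all genes tested became 119 and 108.

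Exon reads moved more often than intron reads. In exon reads 62 of the 100 genes were higher and 4 lower in the difference between the courses (background 16.8% and 14.4%), with a median of 0.61 against 0.01 over all genes. In intron reads 5 were higher and 20 lower (background 3.09% and 17.2%), shares near the background, and the median was -0.18 against -0.21. Of the 60 genes called for the ratio, 51 were also called higher in exon reads and 17 lower in intron reads. Within series 2 and 5 the 62 and 20 became 41 and 22, beside 805 and 2200 of 8882 genes tested. Within series 11 and 13 they became 52 and 5, beside 1250 and 227 of 9032. Without the downshift sample at 1 h they were 34 and 10, and without the upshift sample at 1 h 29 and 1. Over all genes tested, the 1633 called higher in exon reads became 567 and 580 in these fits. The 1671 called lower in intron reads became 667 and 112. The 20 also became 13 without the downshift sample at 6 h, and the 1671 became 940. With intron reads scaled by their own factors 8 were lower and 10 higher, and the median turned to 0.10. Over all genes tested 472 were lower and 898 higher of 9742 in that fit, and the median turned to 0.07. Within series 11 and 13 the median of the 100 genes was 0.03, with 5 in each direction. There 227 of 9032 genes were lower and 207 higher, with a median of -0.05. The 5 higher intron calls of the main fit were not made within series 2 and 5 or without the upshift sample at 1 h.

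At 6 and 9 h the level itself could be compared between 33 °C (downshift samples) and 38 °C (upshift samples). Each temperature had 2 samples, the 6 h and the 9 h sample of 1 course. The scatter in these tests therefore includes the change between those times. Temperature and the course that led to it cannot be told apart at these times. The ratio was higher at 33 °C in 46 of the 100 genes and lower in 11 (background 12.1% and 16.0%). The median difference, 33 minus 38 °C, was 0.22 on the log2 scale for the 100 genes and -0.02 for all genes tested. Within series 2 and 5 the counts were 35 and 8, beside 478 and 1805 of 8882 genes tested. Within series 11 and 13 the counts were 38 and 5, beside 776 and 611 of 9032. Without the upshift sample at 6 h they were 38 and 4, and the 11 lower genes became 7 in DESeq2 and 7 in limma. In this comparison the column series that were at 33 °C at 0 h were at 38 °C. In 34 of the 46 genes the difference in change from 1 to 9 h was called as well, and 22 of the 100 genes were called in neither comparison. The 100 genes chosen by the mirrored rule, with the lowest ratio at 33 °C at 0 h, had 5 called higher and 64 called lower at 6 and 9 h, with a median of -0.45.

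Exon reads at 6 and 9 h were higher at 33 °C in 42 of the genes and lower in 26 (background 20.2% and 27.7%), with a median of 0.15 against -0.04. Intron reads were higher in 9 and lower in 39 (background 12.0% and 17.4%), with a median of -0.15 against -0.02. Among the 46 genes with a higher ratio, 13 combined called higher exon reads with called lower intron reads, 20 had the exon call alone, 10 had the intron call alone and 3 had neither. Among the 11 with a lower ratio, 1 had both calls reversed, 6 had lower exon reads alone, 1 had higher intron reads alone and 3 had neither. Series 2 and 5 alone had exon reads higher in 32 and lower in 7, beside 1315 and 2113 of 8882 genes tested. In series 11 and 13 alone exon reads were higher in 41 and lower in 35, beside 2423 and 2821 of 9032. Without the downshift sample at 9 h they were higher in 27 and lower in 27, and without the upshift sample at 6 h higher in 31 and lower in 17. Intron reads within series 2 and 5 were higher in 16 and lower in 22, with a median of -0.01. Over all genes tested in that fit 1344 were higher and 853 lower of 8882, with a median of 0.04. In series 11 and 13 alone intron reads were higher in 7 and lower in 37, beside 954 and 1734 of 9032. Without the upshift sample at 6 h the 9 with higher intron reads became 2.

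**Figure D3:**
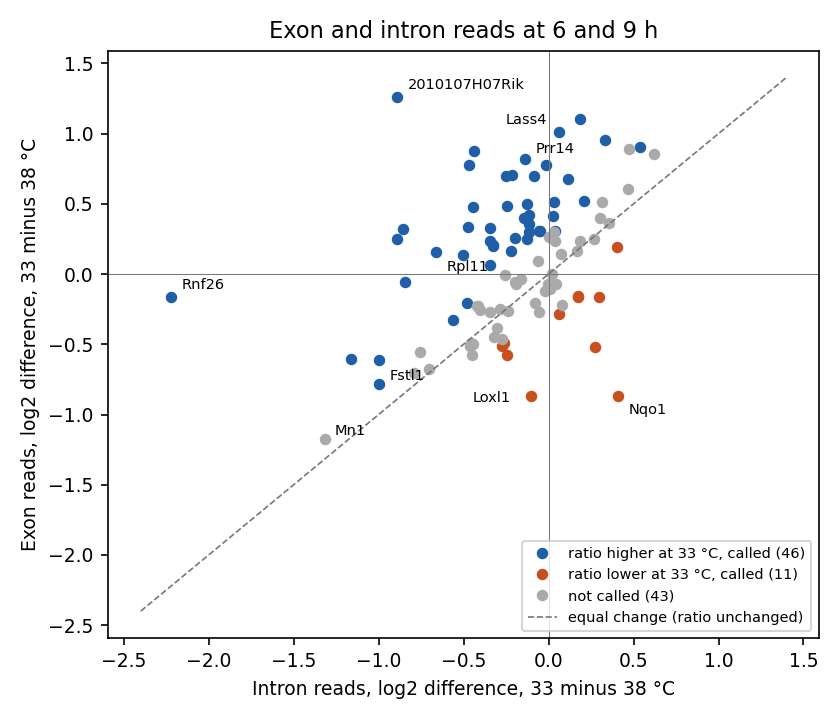
Log2 difference in exon reads (vertical axis) against that in intron reads (horizontal axis), 33 minus 38 °C at 6 and 9 h, with 1 point per gene for the 100 genes and colours for the called ratio. The 46 called higher points lie above the dashed line of equal change and spread over gains of exon reads (2010107H07Rik, 1.26) and losses of intron reads (Rnf26, -2.22), and the 11 called lower points lie below it.

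The counts by role that follow stand beside 60 of all 100 genes called higher between the courses, and 46 higher and 11 lower at 6 and 9 h. The background over all genes tested was 20.9% for the first, and 12.1% and 16.0% for the others. The roles were assigned after values were seen, and differences between them were not tested. Among genes of lysosomes, the Golgi and membrane traffic, 11 of 15 were called higher between the courses, and at 6 and 9 h 8 were higher and 1 lower. The gene with the largest smaller difference at 0 h was 2010012O05Rik, now named Borcs7, a subunit of the BORC complex that positions lysosomes. Its ratio of exon to intron reads was 0.34, 0.89, 1.00, 1.06 and 1.113 at 0, 1, 3, 6 and 9 h in the downshift course. In the upshift course it was 1.52, 0.85, 0.62, 0.39 and 0.49 at the same times. The samples at 33 and 38 °C did not overlap at 6 and 9 h, where the log2 difference was 1.31 ± 0.14 (SE, edgeR adjusted p = 3.93e-08), with differences of 0.88 in exon reads and -0.44 in intron reads. The difference between the courses, 1.30 ± 0.30 (adjusted p = 0.00886), was no longer called without either 1 h sample (adjusted p = 0.0994 without the downshift one and 0.148 without the upshift one) or with time in hours (0.0519).

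Dnase2a, an acid DNase of lysosomes, had ratios of 2.36, 3.06, 3.58, 5.47 and 6.42 over the downshift course and 6.45, 5.40, 4.61, 3.15 and 2.97 over the upshift course. Its ratio moved at every step in both courses, and its difference in change was 2.04 ± 0.24 (adjusted p = 0.000441). Exons of other genes take up 32.5% of its annotated intron bases. Rabif, a guanine nucleotide exchange factor for Rab proteins, was higher at 33 °C at 6 and 9 h by 0.92 ± 0.11 (adjusted p = 1.91e-07), Tmed5, a cargo receptor of the early secretory pathway, by 0.91, and Zdhhc3, a Golgi palmitoyltransferase, by 0.53. Fam18a, a Golgi membrane protein now named Tvp23a, had a higher ratio by 0.56 while its exon reads fell by 0.61 and its intron reads fell by 1.16 at 33 °C relative to 38 °C. In series 2 and 5 alone the ratio difference, 0.38, did not pass (adjusted p = 0.0518).

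Of the genes for solute carriers, pumps and channels, 11 of 16 were called higher for the difference between the courses, with 6 higher and 1 lower at 6 and 9 h. Slc1a5, a glutamine carrier, had a difference in change of 1.46 (adjusted p = 0.000799) and a late difference of 0.56. Slc6a6, the taurine carrier, changed by 1.54 (adjusted p = 0.000802) with a late difference of 0.14 that did not pass the test. Tpcn2, a cation channel of endosomes and lysosomes, had 12.4 and 14.4 CPM of exon reads at 33 °C and 6.27 and 7.41 at 38 °C at 6 and 9 h. Both its exon reads (0.90) and its intron reads (0.54) were called higher in the cold, so the gain in the ratio, 0.36 (adjusted p = 0.0313), was smaller than that in exon reads, and it was lost without the downshift sample at 9 h (adjusted p = 0.201), the upshift sample at 6 h (0.113) or that at 9 h (0.134), within series 11 and 13 (0.308), in DESeq2 (0.0725) and in limma (0.0549). Slc27a1, a fatty acid transporter, likewise had exon reads higher by 0.86 and intron reads higher by 0.62, with a ratio difference of 0.23 that did not pass but was called within series 2 and 5 (0.34, adjusted p = 0.0393).

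Of the 11 genes of matrix and secreted proteins and of their modifying enzymes, 3 were called higher between the courses, near the background of 20.9%. At 6 and 9 h 4 were higher and 3 lower (background 12.1% and 16.0%). Loxl1, which cross-links elastin, had a ratio of 2.37, 2.46, 2.73, 2.73 and 2.58 over the downshift course and 5.31, 4.12, 4.65, 4.55 and 4.47 over the upshift course. The upshift samples stayed above the downshift samples at every time. The late difference was -0.77 ± 0.08 (adjusted p = 3.84e-08) and the difference in change was -0.03 (adjusted p = 0.914). Col5a1, a fibrillar collagen chain, was lower in the ratio at 6 and 9 h by a difference of -0.23 (adjusted p = 0.0094), which was lost without the downshift sample at 9 h (adjusted p = 0.0502) or the upshift sample at 6 h (0.252) and in limma (0.187), and was 0.04 within series 2 and 5.

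Fstl1, a secreted glycoprotein, had 366, 410, 379 and 374 CPM of exon reads at 1, 3, 6 and 9 h of the downshift course and 1020, 874, 611 and 575 at those times of the upshift course. Its intron reads were 140, 134, 94.5 and 83.6 in the downshift course and 196, 189, 169 and 154 in the upshift course. Both were lower at 33 °C at 6 and 9 h, with differences of -0.78 in exon reads and -0.997 in intron reads. Its difference in the change of the ratio was 1.37 ± 0.17 (adjusted p = 0.000502). Prss23, a secreted serine protease, had the same late pattern, with -0.61 in exon reads, -0.995 in intron reads and 0.39 in the ratio, where series 2 and 5 alone gave 0.28 (adjusted p = 0.0626). Sulf2, which removes sulfate groups from heparan sulfate, had a late ratio difference of 0.78 with intron reads at -0.84. In the wider list of fibroblast matrix genes, which holds Loxl1 and Col5a1, 6 of the 22 tested were called higher between the courses (background 20.9%), and at 6 and 9 h 16 were lower (background 16.0%).

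Of the receptors and adhesion proteins, 5 of 11 were called higher between the courses, and at 6 and 9 h 4 were higher and 2 lower. Pcdh7, a protocadherin, had ratios of 0.32, 0.39, 0.65, 0.78 and 0.68 over the downshift course and 0.77, 0.50, 0.35, 0.32 and 0.31 over the upshift course. Its late difference was 1.25 ± 0.09 (adjusted p = 7.27e-12), with exon reads at 0.78 and intron reads at -0.47. Its difference in change, 1.61, became 0.91 without the downshift sample at 1 h (adjusted p = 0.0868). Scara3 and Scara5 are scavenger receptors, of which Scara5 binds ferritin. Scara5, named after its values were seen, had a difference in change of 2.60 (adjusted p = 0.0019), and its late difference was -0.10, which did not pass. From 0 to 1 h its log2 ratio, downshift minus upshift, first moved away from the new temperature. It went from -1.54 to -3.25 in series 5 minus 2 and from -1.37 to -2.39 in series 11 minus 13. Scara3 had 2.27 (adjusted p = 0.00316), which became 0.84 without the upshift sample at 1 h (adjusted p = 0.148), and a late difference of 0.74. Sorcs2, a sorting receptor, had a difference in change of 1.72, which became 0.80 without the upshift sample at 1 h (adjusted p = 0.212) and lost its call without the downshift one (0.0673) or with time in hours (0.058), and a late difference of 0.41 (adjusted p = 0.0151), which was lost without the downshift sample at 6 h (0.242) or the upshift sample at 6 h (0.118), in series 2 and 5 alone (0.11), in series 11 and 13 alone (0.0584) and in limma (0.057). Unc5b, a netrin receptor, had exon reads at -0.70 and intron reads at -0.79 at 6 and 9 h, so that its ratio differed by 0.08.

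Of the signalling genes, 6 of 11 were called higher between the courses, and 7 were higher at 6 and 9 h. Rnf26, a ubiquitin ligase of the endoplasmic reticulum membrane, had 32.9, 15.3, 11.5, 8.03 and 8.51 CPM of intron reads over the downshift course and 11.5, 23.6, 28.5, 40.2 and 32.4 over the upshift course. Its exon reads lay between 45.8 and 60.9 in all 10 samples. The late difference was -2.22 in intron reads and 2.05 ± 0.11 in the ratio (adjusted p = 2.18e-14). Its longest GENCODE transcript has no intron, 30.0% of the annotated intron bases of the gene lie in exons of other genes, and Mfrp and C1qtnf5 run on the other strand, and the part of such transcripts in the intron values was not tested. Inpp5k, a phosphoinositide phosphatase, had a difference in change of 1.46 (adjusted p = 0.00214) and a late difference of 0.53, which was 0.24 within series 2 and 5 (adjusted p = 0.278).

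The genes of lipid, amine and redox metabolism split between the comparisons. Of 10, 6 were called higher between the courses, and at 6 and 9 h 1 was higher and 3 lower. The higher one was Lass4, a ceramide synthase now named Cers4, with 34.8 and 38.4 CPM of exon reads at 33 °C and 15.8 and 18.9 at 38 °C at 6 and 9 h. Its intron reads overlapped, with 46.2 and 52.8 at 33 °C and 42.6 and 47.0 at 38 °C. The late ratio difference was 0.95 ± 0.10 (adjusted p = 4.42e-08) and the difference in change 1.74 ± 0.27 (adjusted p = 0.00139). Acsbg1 (an acyl-CoA synthetase), Adc (an antizyme inhibitor now named Azin2) and Ptgis (the prostacyclin synthase) had differences in change of 2.11, 2.45 and 1.93, all called. From 0 to 1 h their log2 ratio, downshift minus upshift, first moved away from the new temperature in series 5 minus 2. It went from -1.17 to -1.95, from -1.06 to -2.10 and from -1.06 to -2.17. In series 11 minus 13 it went from -1.23 to -1.07, from -1.49 to -1.97 and from -1.31 to -1.52. Acsbg1 lost its call without the upshift sample at 1 h (1.45, adjusted p = 0.0578). Csad, an enzyme of taurine synthesis, had exon reads at 0.61 and intron reads at 0.47 at 6 and 9 h and a ratio difference of 0.14.

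Nqo1, a quinone reductase and a classical target of the transcription factor NRF2, had the largest late difference against the cold. Its exon reads, in CPM, were 34.9, 37.4, 40.2, 66.8 and 88.1 over the downshift course and 330, 296, 245, 152 and 116 over the upshift course. The exon reads of the courses drew nearer at every step without meeting. Its ratio was 5.02, 2.71, 3.39, 3.86 and 5.34 in the downshift course and 11.3, 29.3, 16.7, 13.5 and 8.97 in the upshift course. The first hour thus ran the other way in both courses, and the change from 1 to 9 h, at 2.48 ± 0.22 (adjusted p = 0.000151), stood beside the late difference of -1.29 ± 0.13 (adjusted p = 2.62e-08). Of the 17 NRF2 targets tested, 13 were called higher between the courses (background 20.9%), and at 6 and 9 h 3 were higher and 4 lower (background 12.1% and 16.0%). Faah, which degrades fatty acid amides, was lower by a late difference of -0.46 (adjusted p = 0.023), lost without the downshift sample at 9 h (0.203), the upshift sample at 6 h (0.0982) or that at 9 h (0.0886), within series 11 and 13 (0.0814) and in DESeq2 (0.0901).

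**Figure D4:**
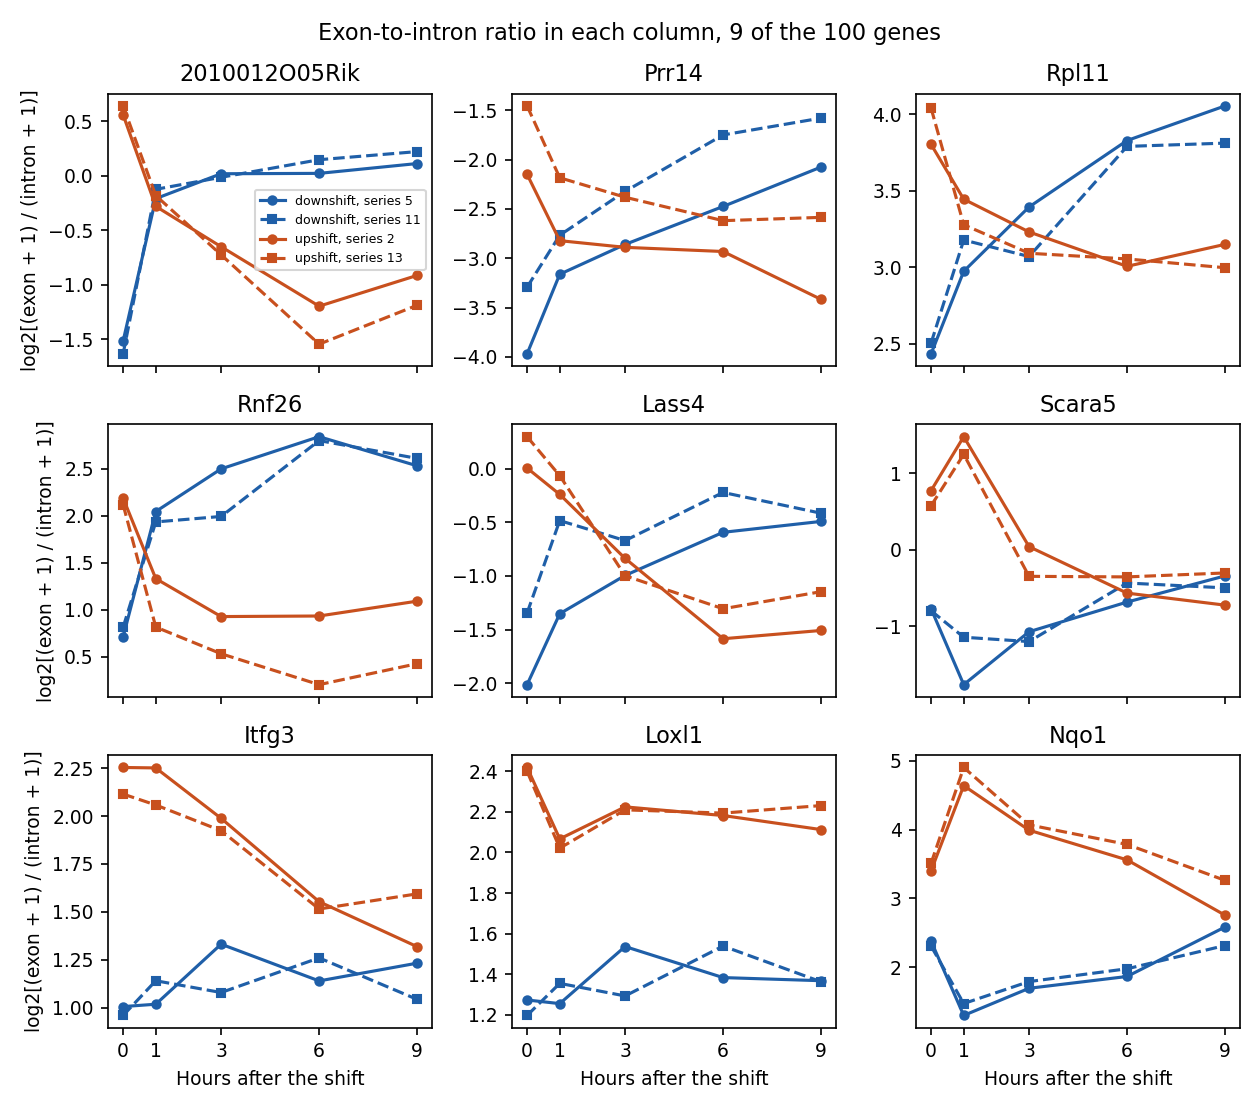
Log2 ratio of exon to intron reads (vertical axis, own scale in each panel) against hours after the shift in 9 of the 100 genes, with 1 line per column series (blue downshift, orange upshift). The lines cross in the upper panels, Rnf26 and Lass4, meet in Scara5, and stay apart in Itfg3, Loxl1 and Nqo1, where the upshift lines lie above at 9 h in both series.

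All 4 mitochondrial genes were called higher between the courses, and 3 were higher at 6 and 9 h. The gene 2010107H07Rik, now named Smim4, a small mitochondrial membrane protein, had 9.15 and 8.31 CPM of exon reads at 33 °C and 3.37 and 3.66 at 38 °C at 6 and 9 h. Its intron reads were 9.60 and 9.68 at 33 °C and 17.4 and 16.6 at 38 °C. Neither kind of read overlapped, and the late ratio difference of 2.15 ± 0.15 (adjusted p = 9.8e-12) was the largest among the 100 genes. It has 1 intron, 39606 bases long, with Pbrm1 on the other strand. Its call between the courses was lost without the downshift (adjusted p = 0.157) or the upshift sample at 1 h (0.0646). Dnajc19, which belongs to the protein import machinery of the inner membrane, had a late difference of 1.14 ± 0.13 (adjusted p = 1.43e-07), mostly from intron reads (-0.89), and 35.0% of its intron bases lie in exons of other genes. Its call between the courses was lost without the downshift (adjusted p = 0.225) or the upshift sample at 1 h (0.376), without the downshift sample at 9 h (0.0621), with separate scaling (0.0624) and with time in hours (0.0798).

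The 3 genes of the ribosome and RNA were called higher in both comparisons. Rpl11, a protein of the large ribosomal subunit that also binds the p53 regulator MDM2, had intron reads of 61.4, 42.9, 39.0, 28.5 and 26.3 CPM over the downshift course. In the upshift course they were 21.999, 34.3, 38.0, 42.6 and 41.7. Its exon reads lay between 335 and 411 in all 10 samples. The late difference was -0.66 in intron reads, 0.16 in exon reads and 0.82 ± 0.09 in the ratio (adjusted p = 3.86e-08). Rp9, a nuclear protein, reached 0.79 and Ddx49, an RNA helicase, 0.68. Among all 39 cytosolic ribosomal protein genes tested, 20 were called higher between the courses (background 20.9%), with a median of 0.49. At 6 and 9 h 5 were higher, a share near the background of 12.1%.

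Of the genes of transcription, chromatin and the nuclear envelope, 4 of 9 were called higher between the courses, and 5 were higher at 6 and 9 h. Prr14 had exon reads of 9.25, 11.5, 12.6, 15.9 and 18.2 CPM over the downshift course and intron reads of 115, 87.2, 74.8, 67.3 and 65.5. In the upshift course its exon reads were 14.2, 10.4, 10.3, 10.0 and 8.85 and its intron reads 46.9, 57.8, 62.9, 69.7 and 72.9. Exon and intron reads moved in opposite directions in both courses. The difference in the change of the ratio was 1.66 ± 0.19 (adjusted p = 0.000357) and the late difference 0.95 ± 0.11 (adjusted p = 2.53e-07). Mn1, a transcriptional co-regulator, had 21.2 and 22.8 exon reads at 33 °C and 44.7 and 43.5 at 38 °C at 6 and 9 h, and 24.5 and 26.2 intron reads at 33 °C against 54.7 and 57.1 at 38 °C. Both were called lower in the downshift samples (-1.18 and -1.32), and the ratio difference was 0.14, which did not pass. At 0 h its exon reads were higher at 33 °C, at 42.4 against 25.1 CPM at 38 °C, and its intron reads were 31.7 and 47.8. The exon difference between the courses thus did not change sign with the temperature. Zfp710, a zinc finger protein, had a late ratio difference of 0.78, and its difference in change of 1.39 became -0.01 without the downshift sample at 1 h.

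Of the 10 genes to which no role was assigned, 7 were called higher between the courses, and at 6 and 9 h 5 were higher and 1 lower. Gm773 and Cdr2l had exon reads higher at 33 °C by 1.102 and 0.96, with ratio differences of 0.92 and 0.63. Kctd4 had a late difference of 1.17 ± 0.15 (adjusted p = 5.89e-07), from intron reads at -0.86 and exon reads at 0.32, and a difference in change of 0.03. Its courses had already crossed at 1 h. Itfg3, now named Fam234a, was the lower one, with a late difference of -0.34 (adjusted p = 0.00763, and 0.0767 without the upshift sample at 6 h, 0.147 in series 2 and 5 alone and 0.0691 in series 11 and 13 alone).

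The 3 genes left out by the rule are a scale for these values. Cirbp had a ratio of 0.89, 1.90, 4.91, 6.52 and 7.15 over the downshift course and 9.114, 10.0, 3.88, 1.55 and 1.60 over the upshift course. Its late ratio difference was 2.12 ± 0.13, about the size of that of 2010107H07Rik, and came with a difference in exon reads of 2.79, which no gene among the 100 reached. Cela1 had a late difference of 1.85 and Rbm3 one of 0.64. For Rbm3 the exon reads differed by -0.02 at 6 and 9 h and the intron reads by -0.67. On either side of the cutoff of the rule, the late ratio difference was -1.29 for Nqo1, 0.53 for Zdhhc3 and 0.27 for Slc41a2 inside it, and 0.03 for R3hdm4, 0.02 for Pmepa1 and -0.02 for Xylt2 outside it. That of Slc41a2, a magnesium transporter, was called (adjusted p = 0.0154) but not without the downshift (0.146) or the upshift sample (0.167) at 6 h, nor in series 2 and 5 alone (0.314), series 11 and 13 alone (0.112) or limma (0.135).

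Genes of the splicing machinery were counted for the same difference between the courses. Of 42 core spliceosome genes, 11 were called with a higher and 1 with a lower ratio, with a median of 0.31 against 0.21 over all genes tested and a background of 20.9% called higher. The counts were 3 higher and 1 lower of 12 SR proteins, 7 higher and 2 lower of 19 hnRNP proteins, and 3 higher of 9 CLK, DYRK and SRPK kinases, which phosphorylate SR proteins. None of these lists holds one of the 100 genes.

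Gene structure was set beside that of the other genes past the count floor, of which 8207 were found in GENCODE M21. The 100 had a median of 4808 exon bases, 24231 intron bases and 7.5 introns in the longest transcript, against 5093, 23663 and 9 for the others. The longest intron had a median of 12787 bases (quartiles 4870 and 34891) against 8023 (3859 and 19362), and the GC content of the transcript a median of 54.2% against 49.3%. The genes chosen by the mirrored rule had 5424 bases and 46.8%. A single intron was found in 7 of the 100 and 2.33% of the others, a small RNA within the gene in 5 and 9.48%, and a gene on the other strand in 51 and 43.7%. These are descriptions over genes, with no test.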

How the data were processed

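Wild-type NIH3T3 total RNA was treated with DNase, depleted of ribosomal RNA and sequenced as paired-end, strand-specific libraries on a HiSeq2500, per the labels' protocols. The submitters' processing notes name STAR, bedtools and the build mm10. For the annotation, the use of strand and shared reads, the steps are not given in the sources used. The deposited tables hold the authors' estimated counts (expected counts, not whole) for exons and introns, although their names speak of RPKM. Only 16.1% of values above 0 are whole within 1e-06, and column totals differ.

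The 2 columns of a sample were summed and rounded to make 1 sample. An offset per gene accounted for the share of each series, and TMM factors from exon reads scaled both kinds of read. Genes with a mean of at least 100 exon and 100 intron reads were tested (9742, among them all 100), with edgeR 4.0.16 in R 4.3.3. For the ratio, the tested term was that of read type by course or by log2(hours + 1), with a term per sample. The 8 samples at 1 to 9 h entered the fits of change, and the 4 at 6 and 9 h those of level. In the fits of level the 2 samples at each temperature were of 1 course, 1 per time. Exon and intron reads were also fitted alone. Changes are fitted values from 1 to 9 h. SEs come from the quasi-likelihood F. CPM values are over the exon reads of the sample. Alternatives were DESeq2 1.42.0, limma 3.58.1 on log2 ratios, other scalings and filters, single series pairs, time in hours and leaving out each sample. The methods were tested on simulated data.

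Genes were named by rule: the 10 with the largest smaller difference at 0 h, the 10 largest called and 5 lowest late ratio differences, the 3 on either side of the cutoff, up to 5 called per direction for late exon and for late intron reads, members of the gene lists, and the 3 left out. Other genes named were chosen after their values were seen. The 100 genes and the lists were chosen with earlier results of these data known, and the 9 roles were assigned after values were seen. Gene structure and sequences come from GENCODE M21 (GRCm38), matched by gene identifier. Some of the genes named by the rule are not reported here.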

Additional observations from a re-analysis of the deposited data

How the results depend on the processing

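The counts below are of the 100 genes called in the direction given in the report, and the cause of each shift was not tested. For the difference between the courses (60), series 11 and 13 alone gave 37, and leaving out 1 sample at a time gave 24 to 65. Over all genes tested, the 2039 called higher became 452 in the fit that gave 24 and 2404 in the one that gave 65. After the move to 33 °C (25), series 2 and 5 gave 38, series 11 and 13 gave 7, time in hours 14, and leaving out 1 sample 5 to 36. After the move to 38 °C (45), series 11 and 13 gave 19, separate scaling of exon and intron reads 24, time in hours 11, and leaving out 1 sample 3 to 54. The late ratio count (46) stayed within 35 to 47 in all alternatives run, 38 to 43 without 1 sample. Late exon reads (42) gave 27 to 34 without 1 sample. Late intron reads (39) gave 22 in series 2 and 5, and 28 to 42 without 1 sample. For the difference between the courses, exon reads (62) gave 41 in series 2 and 5 and 29 to 61 without 1 sample, and intron reads (20) gave 5 in series 11 and 13, 8 with their own scaling and 1 to 22 without 1 sample. DESeq2, other count minimums, no offset, the addition of series 10 and, run for the ratio alone, limma kept these counts within 1.5 times. Among the single genes named by rule, the only ones rerun, 2 called values changed sign: Zfp710 between the courses, with -0.0089 to 2.0982 without 1 sample (lowest without the downshift sample at 1 h), and Col5a1 late, with 0.0391 in series 2 and 5.

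No paired analysis was possible because each time of each course has 1 sample and the labels give no replicate number that groups share. The slopes rest on 4 samples per course and the late levels on 2 per temperature, and the 1 h samples weigh most on the slopes. Every column had at least 89.6 exon and 90.1 intron reads for each of the 100 genes. Each column series lies in 1 course, so series and course cannot be told apart within a pair at 1 time.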
